A study of Mus musculus with 14 samples.

Results

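The genes described here encode the chains of collagens and laminins, the proteins from which basement membranes and matrix fibrils are built. They were taken as every protein-coding mouse gene whose symbol names a collagen alpha chain or a laminin alpha, beta or gamma chain, which gave 55 of the 49671 genes in the count tables. They were read in satellite cells, which are muscle stem cells, of C57BL/6J mice. Each library held 1000 such cells from uninjured muscle of the hind limb, chest and triceps. The sort kept cells that carried B1-integrin and CXCR4 and left out those with CD45, CD31, CD11b, Ter119 or Sca1, which mark blood, vessel and stromal cells. At 4 months of age, 4 libraries labelled FosGFP+ and 4 labelled FosGFP- were made, separated by a green fluorescent reporter of Fos, a subunit of the AP-1 transcription factor; the series text gives 4 mice. At 6 months, 3 libraries labelled FoscKO, a conditional deletion of Fos, and 3 labelled Control were made; the series text gives 3 mice and names a FosGFP+ gate for both arms. The labels used here name neither the Cre driver nor the deleted part of Fos, and none ties a library to a mouse, so the spread between libraries may in part be technical. The 4 groups are called FosGFP+, FosGFP-, FoscKO and Control after these labels.

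A satellite cell lies between the muscle fibre and the basement membrane that wraps it. That membrane is made of a pair of networks, one of laminin heterotrimers, each of an alpha, a beta and a gamma chain, and one of type IV collagen, with collagens XV and XVIII bound at its faces. Outside it, the fibril-forming collagens I, III and V make the fibrils of the endomysium, fibril-associated collagens such as XII and XIV sit on their surface, and collagen VI beaded filaments join fibrils to the basement membrane. Satellite cells both touch these proteins through integrins, dystroglycan and syndecans and make some of the chains themselves. The 55 genes were split by role into 20 of basement membranes (6 collagen IV chains, 11 laminin chains and collagens VII, XV and XVIII), 20 of fibrils (11 fibril-forming and 9 fibril-associated) and 15 others.

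FosGFP+ libraries held 3806776 to 5983711 counts in genes and FosGFP- libraries 2652230 to 4067543. The span for FoscKO was 4797954 to 10241655 counts and for Control 5326686 to 6930696. Levels are given as CPM, read counts scaled by TMM library size, and compared between genes only as CPM per kb of exon. The 2 datasets were normalised separately, so levels set side by side across them are a description. Fos itself read 5243, 5398, 3098 and 4607 CPM in FosGFP+ and 12883, 11592, 7908 and 11302 CPM in FosGFP-, a difference of -1.25 ± 0.21 on the log2 scale (SE; edgeR adjusted p = 0.000933), so Fos mRNA was lower in the libraries labelled FosGFP+. It read 8443, 2876 and 3805 CPM in FoscKO and 5044, 5025 and 4733 CPM in Control, so gene-level counts of Fos were not below Control in every library labelled FoscKO, and counts over the whole gene do not check which part was deleted. Pax7, the defining gene of satellite cells, was at 38.7 to 85.9 CPM in the first dataset and 32.1 to 70.8 CPM in the second. Defining genes of other cell types lay at 8.36 to 37.7 CPM (Pdgfra, fibro-adipogenic) and 13.0 to 24.7 CPM (Pecam1, endothelium) in the first dataset. Ptprc, which encodes the leukocyte antigen CD45 that the sort selected against, was at 29.7 to 74.4 CPM there. These marker levels are not per kb of exon, so they are not ranked against Pax7 or each other. Acta1, the actin of mature fibres, was at 249 to 543 CPM there. In the second dataset Pdgfra read 7.83, 7.27 and 9.74 CPM in FoscKO and 12.5, 17.0 and 21.7 CPM in Control. Pecam1 read 3.92, 10.4 and 9.02 CPM against 21.9, 12.2 and 14.5 CPM. In both, all FoscKO libraries lay below all Control libraries, as in 6.47% of all genes. Groups overlapped for Ptprc (30.5, 55.7 and 34.6 CPM against 25.3, 32.9 and 43.7 CPM) and for Acta1 (973, 193 and 809 CPM against 1018, 723 and 1472 CPM).

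Since the groups were defined by Fos, promoter windows were searched for the AP-1 consensus, and 3 of them are printed here. They are those of Col3a1, the most abundant chain per length, Col6a1, the one member whose window held a match, and Col8a1, the chain with the smallest p-value in the second comparison. Windows of 250 bases before the gene start were read 5′ to 3′ on the gene's strand from RefSeq (GRCm38.p6), where 40 of the 55 genes had an entry. The AP-1 consensus TGANTCA, which reads the same on both strands, occurred for 1 of these 40 genes and for 7.82% of all 27025 symbols with an entry. A symbol counted if any of its windows held a match. Capitals mark that match. For Col3a1 (chr1:45311288-45311537, plus strand) and Col8a1 (chr16:57754738-57754987, minus strand) the whole window is shown, with no match in it. For Col6a1 only the 30 bases around the match are shown (chr10:76726117-76726146, minus strand), whose first motif base lies 90 bases before the RefSeq gene start. An exon of Col6a1 in GENCODE M21 reaches into the window of 250 bases.
Col3a1: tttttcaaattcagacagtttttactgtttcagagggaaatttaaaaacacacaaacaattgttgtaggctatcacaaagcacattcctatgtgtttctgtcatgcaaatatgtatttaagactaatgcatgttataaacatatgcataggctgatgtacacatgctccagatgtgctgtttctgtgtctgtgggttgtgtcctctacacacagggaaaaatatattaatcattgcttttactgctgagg
Col6a1: atgctgatgctgTGACTCActcagctttga
Col8a1: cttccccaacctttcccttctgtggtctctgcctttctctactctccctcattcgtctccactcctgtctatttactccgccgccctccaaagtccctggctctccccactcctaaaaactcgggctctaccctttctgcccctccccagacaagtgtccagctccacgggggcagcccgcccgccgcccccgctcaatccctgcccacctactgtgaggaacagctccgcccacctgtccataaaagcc
The Col3a1 window was 35.2% G and C and the Col8a1 window 60.8%.

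Which chains the cells carried was first judged against reads that fall evenly over the genome. Reads per kb of exon over 1467 genes of odour, pheromone and taste receptors, which muscle cells are not known to use, set that even background in each library. It amounted to 6.40% to 10.7% of gene counts in FosGFP+, 13.0% to 19.5% in FosGFP-, 3.99% to 11.7% in FoscKO and 9.09% to 10.6% in Control. Of the 55 chains, 17 reached at least 3 times the even background in all 14 libraries, 25 in some and 13 in none. Those 17 were 8 of the 20 basement membrane chains, 6 of the 20 fibril chains and 3 of the 15 others. At 2 times the background 25 chains passed in all libraries, and at 5 times 11 did. Lamc3 and Col26a1 were just inside, with lowest values of 3.15 and 3.29 times the background, and Col15a1 and Col27a1 just outside, with 2.99 and 2.94. Col1a1, Col15a1 and Lama5 reached 3 times in 13 of 14 libraries and missed it in FosGFP- replicate 4 alone, at 2.09, 2.99 and 1.64 times.

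**Figure D1:**
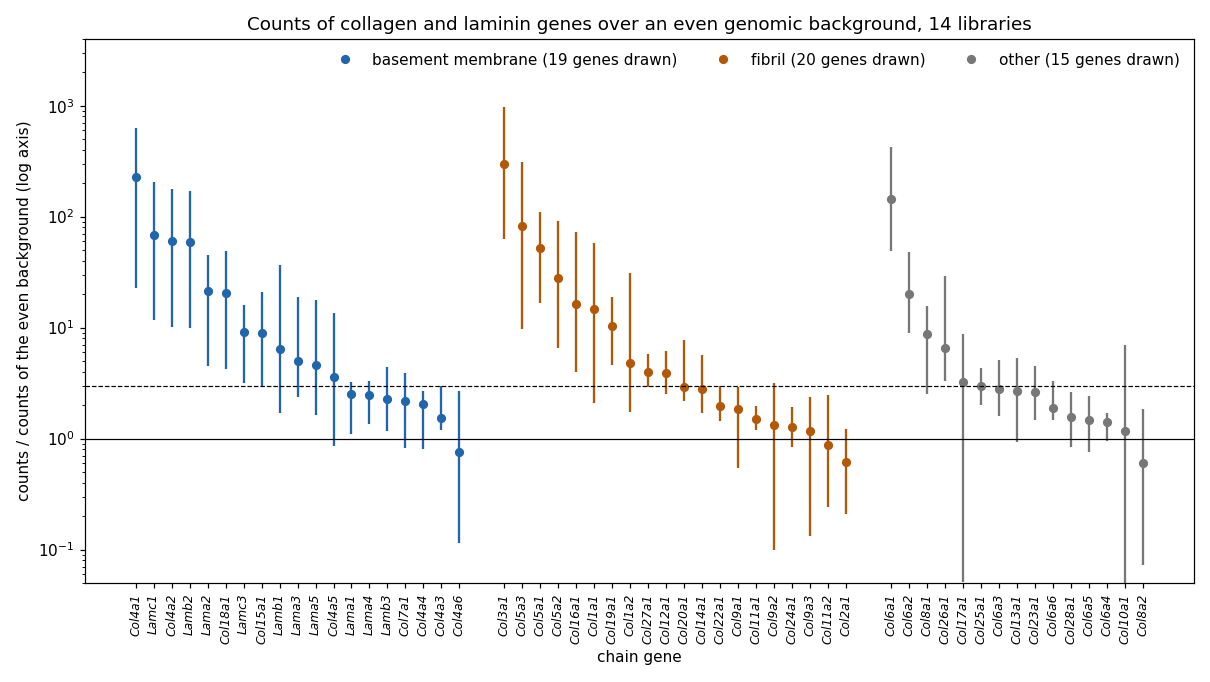
Counts of 54 of the 55 chain genes divided by the counts an even genomic background would give it, on a log axis; points are medians and bars the range over 14 libraries, cut off at the lower edge where a library is at or near 0. The solid line marks 1 and the dashed line 3 times the background: Col3a1 has the highest median, 296 times, and the right-hand genes of each class lie around 1.

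Among collagen IV chains the set above background held Col4a1 and Col4a2, which pair in the common collagen IV trimer, with medians of 226 and 60.5 times the background. Col4a3 and Col4a4, chains of the specialised network of kidney and lung, had medians of 1.52 and 2.05 times, Col4a5 of 3.59 and Col4a6 of 0.75. The laminin chains above it in all libraries included Lama2, Lamb2, Lamc1 and Lamc3, and Lama2 with Lamc1 is the pair of the muscle basement membrane laminins. Lama1 reached 3 times in 2 of 14 libraries, Lama4 and Lamb3 had medians of 2.45 and 2.29 times the background, and Lama3, Lama5 and Lamb1 of 4.95, 4.59 and 6.41.

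Fibril chains above the background in every library were Col3a1, the 3 collagen V chains Col5a1, Col5a2 and Col5a3, and the fibril-associated Col16a1 and Col19a1. The cartilage chains were near it, with medians of 0.61 times for Col2a1, 1.51 for Col11a1, 0.87 for Col11a2, and 1.84, 1.33 and 1.18 for Col9a1, Col9a2 and Col9a3. The collagen I chains lay between, Col1a1 with a median of 14.8 times (at 3 times or more in 13 of 14 libraries) and Col1a2 of 4.80 (11 of 14). Of collagen VI, Col6a1 and Col6a2 had medians of 145 and 20.1 times, whereas Col6a3, the long chain that joins them in the usual trimer, had 2.77 times and reached 3 times in 5 of 14 libraries. Its place can be taken by the chains of Col6a4, Col6a5 and Col6a6, which had 1.41, 1.47 and 1.90 times. The transmembrane collagens Col13a1, Col17a1, Col23a1 and Col25a1 lay between 2.63 and 3.21 times, and Col8a2 and Col10a1 of the hexagonal networks at 0.60 and 1.17.

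Per kb of exon, Col3a1 led in all 4 groups, with group means of 206 CPM per kb in FosGFP+, 167 in FosGFP-, 403 in FoscKO and 327 in Control. Col4a1 followed in FosGFP+, FoscKO and Control, with 179, 252 and 180 CPM per kb, and Col6a1 with 136, 161 and 118. In FosGFP- the order of these was turned, Col6a1 at 112 and Col4a1 at 96.4 CPM per kb. Library values of neighbours in this order overlapped in FosGFP+, FosGFP- and FoscKO and did not in Control. Then came Col5a3 at 51.9 to 110 CPM per kb over the 4 group means and Lamc1 at 43.6 to 81.4. Lamb2 at 39.5 to 60.3, Col4a2 at 28.6 to 77.2 and Col5a1 at 33.6 to 50.6 followed, in an order that differed between groups. Lama2, the alpha chain of the laminin of Lamb2 and Lamc1, read 15.6 to 20.8 CPM per kb, below these partners in each group mean. Exon length here merges all annotated exons of a gene, 16338 bases for Lama2, 6082 for Lamb2 and 8272 for Lamc1. Which of these exons the cells used was not tested, so the gap between the chains may in part come from the lengths. The 20 basement membrane chains together made up 30.7% to 45.8% of the summed level of all chains per library in the first dataset and 35.9% to 42.0% in the second. Fibril chains made up 38.4% to 46.0% and 43.0% to 51.1%. All 55 genes held 0.396% to 1.34% of the gene counts of a library.

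**Figure D2:**
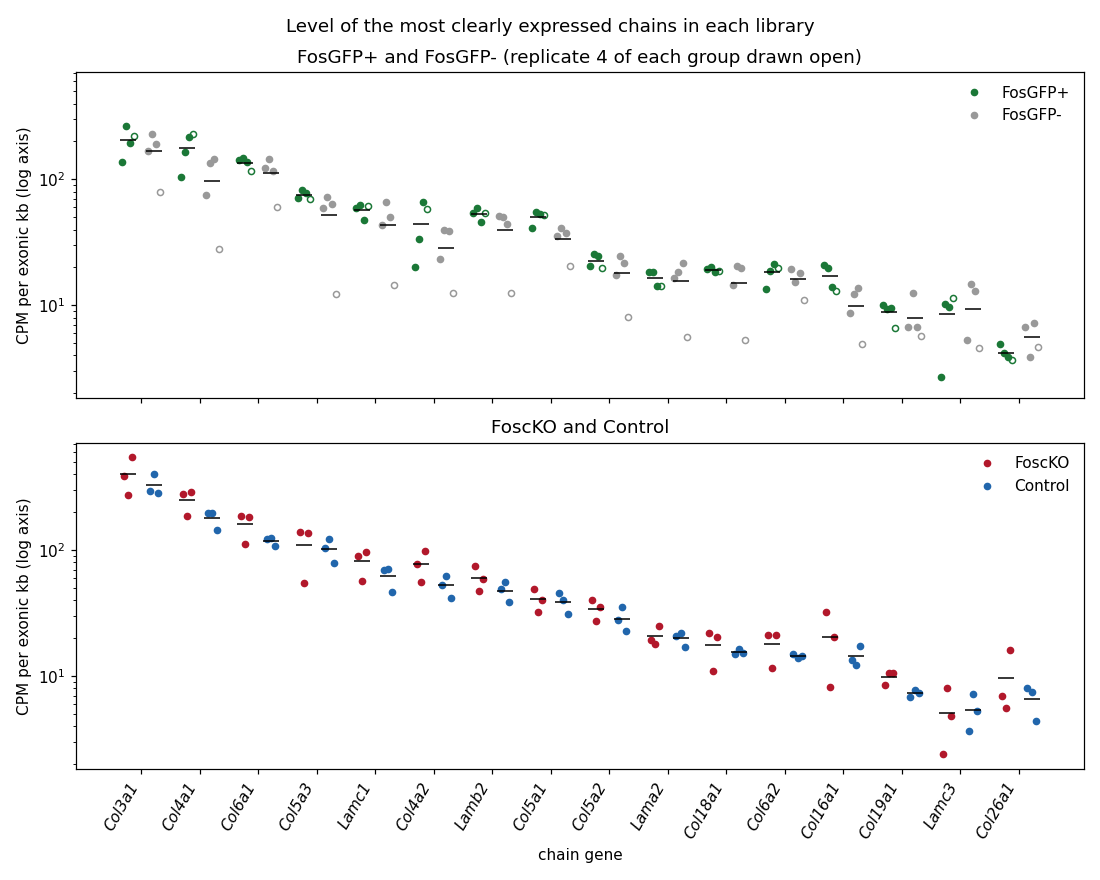
Level of 16 of the 17 chains above background in all libraries, in CPM per kb of exon on a log axis, 1 point per library and a dash at the group mean. Replicate 4 of FosGFP+ and FosGFP- is drawn open: in FosGFP- it is the lowest of its group for each chain drawn except Col26a1.

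The library FosGFP- replicate 4 stood apart in these genes. It was the lowest of its group for 16 of the 17 chains above background, whereas 57.7% of the 4002 genes of at least 50 CPM were lowest there. The chains were at a median of 40.1% of the mean of the other FosGFP- libraries (range 18.7% to 78.6%), against 80.2% for those 4002 genes. Col5a3 was at 18.7% of that mean, Col4a1 at 23.7%, Lamb2 at 25.6% and Lamc1 at 27.4%. This library also had the fewest gene counts of all, 2652230, and the largest even background, 19.5% of gene counts. The part of depth and background in its low chain levels was not tested, and the main results of the first comparison are given with and without it.

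In the second dataset FoscKO replicate 2 was the lowest of its group for 14 of the 17 chains, at a median of 63.3% of the mean of the other FoscKO libraries. That lay near the rest of its transcriptome, which read 71.5% over 3869 genes of at least 50 CPM, 74.8% of them lowest there. Its even background was 11.7% of gene counts, against 3.99% and 6.65% in the other FoscKO libraries. FoscKO replicate 1 read 138% over those 3869 genes and 118% over the chains. In Control, replicate 3 was the lowest for 12 of the 17 chains. Its median was 79.9% of the mean of the other Control libraries, beside 89.7% for the 3869 genes.

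**Figure D3:**
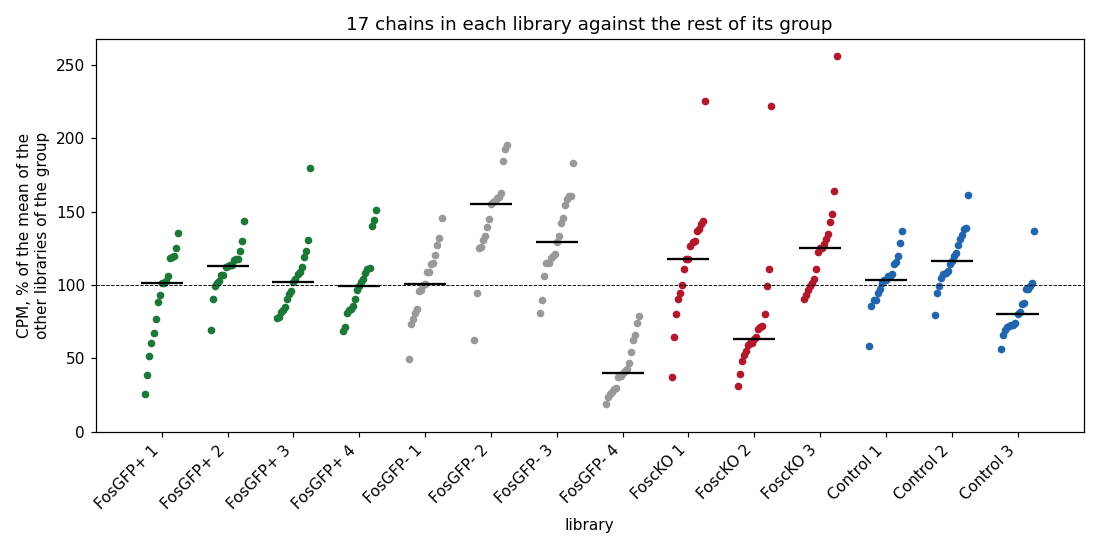
Each of the 17 chains in a library as a percentage of its mean over the other libraries of the same group, 1 point per chain, with a dash at the median. FosGFP- replicate 4 has its median at 40.1% and no chain above 100%, and FoscKO replicate 2 has its median at 63.3%.

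The first comparison set the libraries labelled FosGFP+ against those labelled FosGFP-, between which Fos mRNA went against the direction of the label. None of the 55 chain genes was called higher and none lower in FosGFP+ by edgeR's quasi-likelihood test at an adjusted p under 0.05, while over all 20698 genes tested 10.3% were called higher and 1.85% lower (12.1% together). Unadjusted p-values under 0.05 were found for 3 chains with higher values in FosGFP+ (5.45% of members, against 16.5% of all genes) and 9 with lower values (16.4%, against 9.89%), where 26.4% of all genes had one in either direction. Of 4002 genes of at least 50 CPM, 41.9% were called higher in FosGFP+ and 1.02% lower, with a median log2 change of 0.57. Of the 20 chains at that level 0 were called, and their median was 0.33 with 16 above 0. Without FosGFP- replicate 4 that median was 0.09 with 15 above 0, beside 0.50 for the 4002 genes. DESeq2 called Col5a1 and Col16a1 higher (13.4% of all genes) and Lamb1 and Col9a3 lower (3.11%). limma-voom called 0 higher (10.7%) and Col6a5 lower (2.24%). With scaling by total counts 10 chains were called lower (10.1% of all genes), and with TMM from genes of at least 50 CPM 23 (25.4%), settings that moved the median of all genes by -0.38 and -0.58 on the log2 scale. Without FosGFP- replicate 4 edgeR called 0 of 55 in either direction.

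The sign of a chain's change went with its level. Of the 17 chains above background in all libraries 15 had a log2 change above 0, with a median of 0.34, and of the other 38 chains 33 were below 0, with a median of -0.46. The median over all 20698 genes tested was -0.18, with 12484 of them below 0. Among the 4002 genes of at least 50 CPM 3412 were above 0, and 3308 without FosGFP- replicate 4. The split by level is therefore not read as particular to the chains. Without FosGFP- replicate 4 the 17 chains had a median of 0.10 with 14 above 0, the other 38 a median of -0.46 with 33 below 0, and all genes a median of -0.16. The even background was a larger share of the counts in every FosGFP- library than in any FosGFP+ library, and its part in the values below 0 was not tested. Basement membrane chains had a median of -0.03 (10 of 20 above 0) and fibril chains of -0.46 (6 of 20 above 0). Without that library these medians were -0.09 (8 of 20) and -0.45 (6 of 20).

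**Figure D4:**
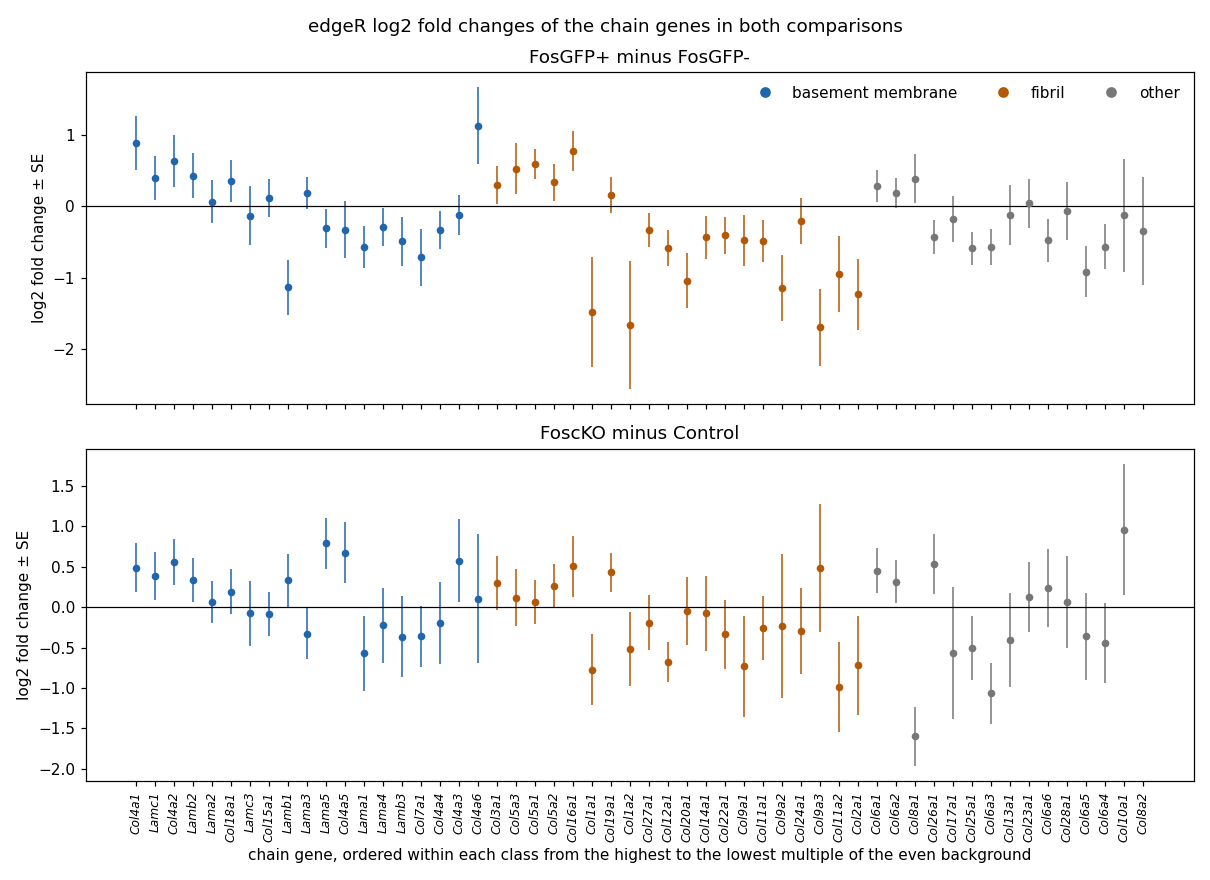
edgeR log2 fold changes of 54 of the 55 chain genes with their SE in both comparisons, ordered within each class from the highest to the lowest multiple of the even background. In the upper panel the leading genes of each class lie mostly above 0 and the trailing ones mostly below it, with Col4a6 at 1.13; no point passes the adjusted threshold in either panel, and Col8a2 was not tested in the second.

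Among the collagen IV genes, Col4a1 (ENSMUSG00000031502, GRCm38 chr8:11198423-11312826, minus strand) read 780, 1239, 1618 and 1699 CPM in FosGFP+ and 565, 1011, 1092 and 211 CPM in FosGFP-. The libraries overlapped, and the log2 change was 0.89 ± 0.37 (SE; edgeR adjusted p = 0.141), or 0.59 ± 0.26 without FosGFP- replicate 4 (adjusted p = 0.199). Its neighbour Col4a2, transcribed in the opposite direction, read 133, 221, 441 and 382 CPM in FosGFP+ and 154, 262, 257 and 83.3 CPM in FosGFP-. Here the 2 highest libraries were FosGFP+ and the lowest FosGFP- replicate 4, and the change was 0.64 ± 0.36 (adjusted p = 0.274) with it and 0.40 ± 0.32 without it. In GENCODE M21 these genes overlap each other only in chr8:11312805-11312826, a short stretch beside their 7464 and 6619 bases of exon. The kit does not keep the strand, so reads of that stretch cannot be told apart. The minor chains Col4a3 to Col4a6 had log2 changes of -0.34 to 1.13, with group means of 5.21 to 22.9 CPM and no adjusted p under 0.05.

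For the laminins, the alpha chain Lama2, which is lost in a congenital muscular dystrophy, read 303, 301, 231 and 232 CPM in FosGFP+ and 271, 300, 356 and 92.3 CPM in FosGFP-. Its change of 0.07 ± 0.30 was -0.20 without FosGFP- replicate 4, and below 0 also with background subtraction and with either of the other scalings named above. Lamb2 read 327, 363, 277 and 329 CPM in FosGFP+ against 314, 305, 267 and 75.6 CPM in FosGFP-. The FosGFP- libraries other than replicate 4 lay inside or next to the FosGFP+ range, and the change of 0.43 ± 0.31 became 0.14 ± 0.16 without that library. Lamc1, the gamma chain of most laminins, read 487, 523, 390 and 506 CPM against 361, 549, 412 and 121 CPM, a change of 0.40 ± 0.31 with replicate 4 of FosGFP- and 0.12 ± 0.18 without it.

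Lamb1, the beta chain that takes the place of Lamb2 in other laminin trimers, had the opposite sign. It read 14.3, 12.3, 33.3 and 34.0 CPM in FosGFP+ and 25.8, 81.8, 65.0 and 33.8 CPM in FosGFP-. The 2 highest libraries were FosGFP- and the 2 lowest FosGFP+, with overlap between, and the log2 change of -1.14 ± 0.39 missed the threshold (edgeR adjusted p = 0.0701). DESeq2 called it, as did edgeR with total counts, with TMM from genes of at least 50 CPM, with a 5 CPM filter and without FosGFP- replicate 1 (adjusted p 0.00820 to 0.0420 over these settings). The even background stood at 13.0% to 19.5% of FosGFP- counts, and Lamb1 at 1.68 to 6.96 times it in this dataset. Among other laminin chains, Lama3 had a log2 change of 0.19 ± 0.22 and Lamc3 of -0.13 ± 0.41, while Lama1, Lama4, Lama5 and Lamb3 lay between -0.28 and -0.57. None passed the test.

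Collagens XV and XVIII, which bear heparan or chondroitin sulphate and release anti-angiogenic fragments, did not pass either. Col18a1 read 136, 141, 130 and 131 CPM in FosGFP+ and 103, 144, 138 and 37.0 CPM in FosGFP-, a narrow band broken by replicate 4, with a log2 change of 0.35 ± 0.30, or 0.08 ± 0.17 without it. Col15a1 was at 46.6 ± 2.65 CPM in FosGFP+ and 42.9 ± 16.8 CPM in FosGFP- (SD, n = 4). Col7a1, the anchoring fibril of skin, was at 14.4 ± 6.08 and 23.4 ± 12.5 CPM (SD, n = 4), with a change of -0.72 ± 0.40.

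Of the fibril-forming collagens, Col3a1 (ENSMUSG00000026043, GRCm38 chr1:45311538-45349706, plus strand), the chain of the thin fibrils of soft tissues, read 1358, 2615, 1924 and 2176 CPM in FosGFP+ and 1652, 2248, 1890 and 775 CPM in FosGFP-. The groups overlapped, and the change of 0.30 ± 0.27 was 0.07 ± 0.20 without FosGFP- replicate 4 and negative when scaled by total counts or by TMM from genes of at least 50 CPM. Col5a1, whose product starts and narrows fibrils, read 351, 470, 454 and 443 CPM in FosGFP+ and 303, 346, 316 and 174 CPM in FosGFP-. It was the one chain with every FosGFP+ library above every FosGFP- library, a pattern shown by 12.9% of all genes. The log2 change was 0.59 ± 0.21 (edgeR adjusted p = 0.0769), 0.43 ± 0.16 without FosGFP- replicate 4 (adjusted p = 0.118) and 0.03 with TMM from genes of at least 50 CPM. The authors' deposited table lists Col5a1 at 0.65 ± 0.23 with an adjusted p of 0.0325, after its sign was turned to FosGFP+ minus FosGFP-. That table holds 3422 genes, 2917 of them higher in FosGFP+, and 3 of the chains, Col5a1, Col16a1 and Col9a3. Without FosGFP+ replicate 1 edgeR called Col5a1 (0.72, adjusted p = 0.0453), as it did with no filter on low counts. A pair of genes on the other strand overlap Col5a1.

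Its partners behaved less distinctly. Col5a3 read 483, 560, 526 and 472 CPM in FosGFP+ and 405, 492, 435 and 83.0 CPM in FosGFP-, a change of 0.53 ± 0.35 that became 0.21 ± 0.15 without replicate 4 of FosGFP-. Col5a2 read 198, 245, 238 and 189 CPM against 167, 237, 208 and 77.4 CPM, a change of 0.34 ± 0.26, or 0.10 ± 0.17 without that library. In both, 3 FosGFP- libraries lay within or close to the FosGFP+ range and replicate 4 far below it.

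The collagen I genes, the main chains of tendon and of fibroblast matrix, varied widely between libraries of one group. Col1a1 read 58.6, 19.8, 41.5 and 37.9 CPM in FosGFP+ and 252, 35.3, 136 and 17.0 CPM in FosGFP-. Col1a2 read 55.0, 14.0, 110 and 32.2 CPM in FosGFP+ and 367, 48.2, 208 and 41.2 CPM in FosGFP-. FosGFP- replicates 1 and 3 were high in both genes and the other FosGFP- libraries were inside or near the FosGFP+ range. The log2 changes were -1.49 ± 0.77 (edgeR adjusted p = 0.265) and -1.67 ± 0.90 (adjusted p = 0.287). Without FosGFP- replicate 4 that of Col1a1 was -1.83 ± 0.55 (adjusted p = 0.0700) and that of Col1a2 -1.98 ± 0.88. FosGFP- replicate 1 carried much of both: without it Col1a1 was at -0.66 ± 0.52 (adjusted p = 0.469) and Col1a2 at -0.91 ± 0.74 (adjusted p = 0.500).

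Tenocyte genes were high in some of the same libraries. The summed level of 9 tenocyte markers, of which 7 to 9 had a count, was 371, 36.3, 758 and 44.4 CPM in FosGFP+ and 1450, 43.6, 584 and 280.5 CPM in FosGFP-. The libraries with the highest sums were FosGFP- replicate 1 and FosGFP+ replicate 3, which also led their groups for Col1a2. For Col1a1 the leading FosGFP+ library was replicate 1, at 58.6 CPM against 41.5 CPM in replicate 3. Tnmd, the defining tenocyte gene, was at 0 in FosGFP+ replicate 2 and at 20.5 CPM in FosGFP+ replicate 3, and Fmod, a fibril-binding proteoglycan, ranged from 0.57 to 751 CPM. The summed level of 16 fibro-adipogenic markers was 2293 to 2949 CPM in FosGFP+ and 1961 to 3412 CPM in FosGFP-. A single gene, Gsn, held most of that sum on average, with means of 1858 and 1665 CPM. Of 15 such markers tested 12 had a log2 change below 0 (median -0.58), Smoc2 being the one called lower, and of 13 endothelial markers 12 were below 0 (median -0.62), with Ramp2 called lower. Over all 20698 genes tested 12484 were below 0 (median -0.18) and 1.85% were called lower. The part of these cell types in the chain values was not tested. In the second dataset the tenocyte sum was 38.2 to 48.8 CPM in FoscKO and 40.5 to 53.9 CPM in Control, while Col1a1 read 83.7, 45.5 and 212 CPM in FoscKO and 136, 263 and 186 CPM in Control. The part of tenocyte RNA in the collagen I levels was not tested, and in bulk libraries more cells of a type and more RNA per cell cannot be told apart.

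**Figure D5:**
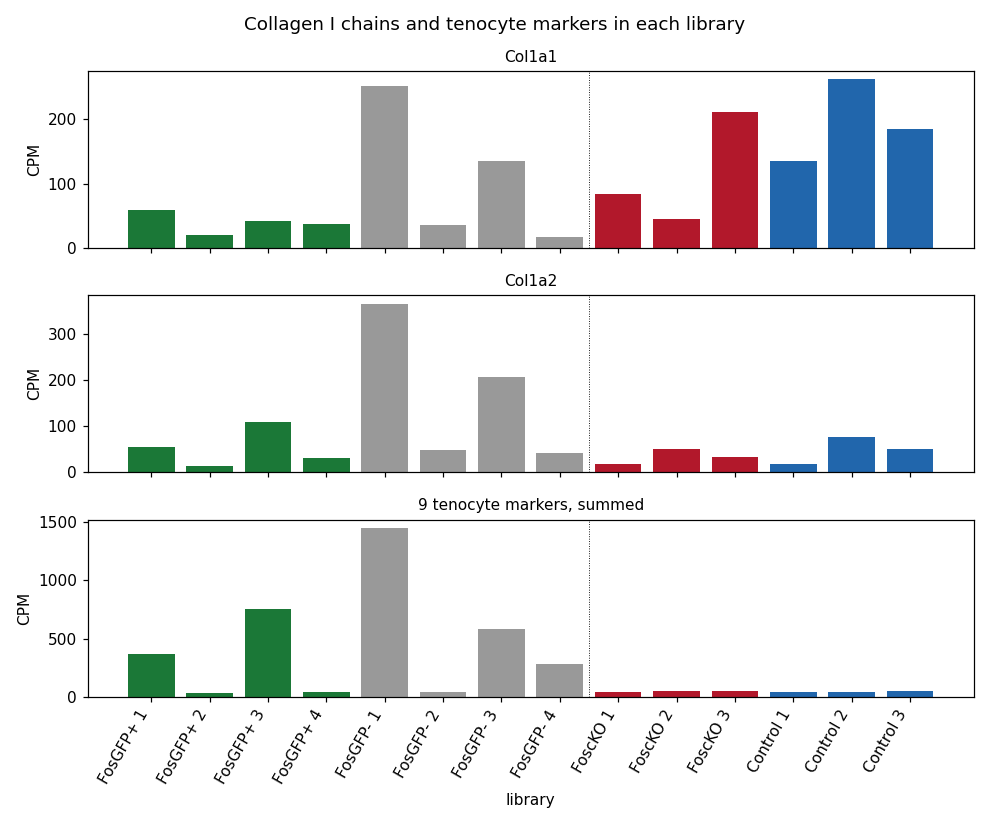
Bars give the CPM of Col1a1, of Col1a2 and of 9 tenocyte markers summed, in each of the 14 libraries; the dotted line divides the 2 separately normalised datasets. FosGFP- replicates 1 and 3 are the highest of the first dataset for both collagen I genes, and in the second dataset the tenocyte sum stays between 38.2 and 53.9 CPM while Col1a1 spans 45.5 to 263 CPM.

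Among the fibril-associated collagens, Col16a1 read 142, 133, 94.7 and 87.8 CPM in FosGFP+ and 58.4, 82.4, 93.2 and 33.5 CPM in FosGFP-. A single FosGFP- library, replicate 3, overlapped FosGFP+, and the log2 change was 0.78 ± 0.27 (edgeR adjusted p = 0.0794), or 0.56 ± 0.22 without FosGFP- replicate 4 (adjusted p = 0.148). The authors' deposited table lists it at 0.80 ± 0.29 with an adjusted p of 0.0350, and with TMM from genes of at least 50 CPM the change was 0.23. Without FosGFP- replicate 3 edgeR called Col16a1 (0.99, adjusted p = 0.0417), as it did with no filter on low counts. Col19a1, a minor collagen also made in embryonic muscle, read 69.6, 64.1, 65.1 and 45.3 CPM in FosGFP+ and 46.3, 86.1, 46.3 and 39.4 CPM in FosGFP-, with FosGFP- replicate 2 the highest of all.

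The other fibril-associated chains had lower values in FosGFP+. Col9a3 read 1.91, 0.63, 3.13 and 3.70 CPM in FosGFP+ and 4.46, 6.03, 8.63 and 11.3 CPM in FosGFP-, with no overlap. The log2 change was -1.69 ± 0.54 (edgeR adjusted p = 0.0521), and the authors' deposited table lists -1.26 ± 0.43 (adjusted p = 0.0235). It was one of 2 chains with all FosGFP+ libraries below all FosGFP- libraries, the other being the transmembrane collagen Col25a1, where 6.45% of all genes showed that pattern. Its counts were 0.25 to 2.37 times the even background. Col9a3 also overlaps Tcfl5 on the other strand. Col12a1 read 46.2, 24.6, 54.6 and 38.5 CPM in FosGFP+ and 57.2, 52.5, 80.5 and 55.3 CPM in FosGFP-, a change of -0.59 ± 0.25 (adjusted p = 0.145) at 2.51 to 4.92 times the background. Col20a1 had a log2 change of -1.05 ± 0.39 (adjusted p = 0.0920, or 0.0476 without FosGFP- replicate 3), and Col9a1, Col9a2, Col14a1 and Col22a1 of -0.40 to -1.15. Of the minor fibril-forming chains, Col27a1 had a log2 change of -0.33 ± 0.23, Col11a1 of -0.48 ± 0.29, Col11a2 of -0.95 ± 0.53, Col2a1 of -1.24 ± 0.49 and Col24a1 of -0.21 ± 0.32. None of these passed the test in the fit of all libraries. With total counts or TMM from genes of at least 50 CPM, Col9a3, Col12a1 and Col20a1 were called lower, as were Col6a3 and Col25a1.

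Collagen VI and the other collagens did not pass by edgeR in the first comparison, and Col6a5 alone was called lower by limma-voom. Col6a1 read 621, 649, 605 and 507 CPM in FosGFP+ and 543, 638, 511 and 265 CPM in FosGFP-, overlapping groups with a log2 change of 0.28 ± 0.22 (edgeR adjusted p = 0.438), 0.09 without FosGFP- replicate 4, and below 0 with total counts or TMM from genes of at least 50 CPM. Col6a2 had a log2 change of 0.19 ± 0.21. Col6a3 read 41.5, 20.1, 26.2 and 25.04 CPM against 38.3, 36.8, 50.3 and 41.8 CPM, with FosGFP+ replicate 1 alone inside the FosGFP- range and a change of -0.57 ± 0.25 (adjusted p = 0.161). Col6a4, Col6a5 and Col6a6 had log2 changes of -0.57, -0.92 and -0.48. Col8a1, a short network-forming collagen of vessels and eye, was at 80.7 ± 23.1 CPM in FosGFP+ and 61.4 ± 34.8 CPM in FosGFP- (SD, n = 4), with a change of 0.39 ± 0.34. Col25a1 read 43.8, 20.9, 37.5 and 31.4 CPM against 48.1, 53.1, 53.2 and 46.6 CPM, a change of -0.59 ± 0.24 (adjusted p = 0.120), and never exceeded 3.96 times the background here. Col13a1, Col17a1, Col23a1, Col26a1 and Col28a1 had log2 changes of -0.43 to 0.05. Col10a1 averaged 4.84 CPM in FosGFP+ and 5.37 CPM in FosGFP-, and Col8a2 averaged 3.07 and 3.85 CPM.

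The second comparison asked how cells labelled FoscKO differ from Control cells. Its directions rest on labels that the Fos counts did not check, and FoscKO and Control stand for the libraries so labelled. By edgeR none of the 54 chains tested was called, and 0% of all 21885 genes tested were, where 5.52% had an unadjusted p under 0.05. Unadjusted p-values under 0.05 were found for 1 chain with higher values in FoscKO, Lama5 (1.85% of members, 3.56% of all genes), and 3 with lower values, Col8a1, Col6a3 and Col12a1 (5.56%, against 1.96%). DESeq2 called 0 chains higher (0.27% of all genes) and Col8a1 lower (0.146%, with 0.416% in either direction), and limma-voom called none (0.0183% of all genes higher, 0.0274% lower and 0.0457% in either direction). The 17 chains above background had a median log2 change of 0.32 with 15 above 0. The median over the 3869 more abundant genes (50 CPM or above) was 0.24 with 3048 above 0. Without FoscKO replicate 2, edgeR again called 0 chains, and 15 of 55 had an unadjusted p under 0.05, where 14.1% of all genes did. The median over the chains then was -0.38 in place of -0.08, beside -0.16 in place of -0.04 for all genes, and that of the 17 chains 0.51, beside 0.40 for the more abundant genes.

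Col8a1 (ENSMUSG00000068196, GRCm38 chr16:57624258-57754737, minus strand) gave the smallest p-value of the family. It read 9.99, 23.9 and 13.1 CPM in FoscKO and 40.3, 38.6 and 62.7 CPM in Control, all FoscKO libraries below all Control libraries, as in 6.47% of all genes. Its counts were 2.87 to 3.60 times the even background in FoscKO and 6.97 to 10.5 times in Control. The log2 change was -1.60 ± 0.37 (unadjusted p = 0.000611, edgeR adjusted p = 0.257). DESeq2 called it (-1.58, adjusted p = 0.00898), as did edgeR with no filter on low counts (adjusted p = 0.00629). The authors' deposited table lists it at -1.29 ± 0.32 with an adjusted p of 0.0208, the only chain among its 69 genes. With 1 library left out the change ranged from -2.01 (without FoscKO replicate 2, adjusted p = 0.0829) to -1.34 (without Control replicate 3). In the first dataset Col8a1 was higher in mean, not lower, in FosGFP+, with no call.

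Col6a3 read 8.51, 19.6 and 19.7 CPM in FoscKO and 24.0, 42.8 and 33.1 CPM in Control, a log2 change of -1.07 ± 0.38 (edgeR adjusted p = 0.781). Its counts were 1.60 to 2.97 times the even background in FoscKO and 2.74 to 5.06 times in Control. Col12a1, a bridge between fibrils and other matrix, read 36.9, 41.7 and 39.4 CPM in FoscKO and 63.9, 53.6 and 71.3 CPM in Control, a change of -0.68 ± 0.25 (adjusted p = 0.783). In both, as in Col11a2, the groups did not overlap, and with Col8a1 these were 4 of 54 chains (7.41%, against 6.47% of all genes). Mature fibre genes were also low in these libraries: 14 of 15 had a change below 0 (median -1.23), none called, beside 11516 of all 21885 genes (median -0.04). Their sums were 632 to 2001 CPM in FoscKO and 1798 to 3756 CPM in Control. Of 13 endothelial markers 11 were below 0 (median -0.34), and of 15 fibro-adipogenic markers 5 were (median 0.33). For tenocyte markers it was 4 of 7 (median -0.0042), and for those of smooth muscle and pericytes 4 of 12 (median 0.40). No marker in these lists was called, and the part of these cell types in the chain levels was not tested.

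Basement membrane chains of the second dataset had a median log2 change of 0.08, with 11 of 20 above 0. Col4a1 read 2088, 1380 and 2176 CPM in FoscKO and 1478, 1481 and 1073 CPM in Control, a change of 0.49 ± 0.30 (edgeR adjusted p = 0.914). Col4a2 followed with 511, 369 and 654 CPM against 350, 413 and 278 CPM, a change of 0.56 ± 0.29. For both, 2 FoscKO libraries were above all Control libraries and replicate 2 was inside the Control range. Lama5, the alpha chain of vessel and epithelial laminins, read 67.8, 51.8 and 112 CPM against 35.8, 39.6 and 59.0 CPM, an overlap through FoscKO replicate 2 and Control replicate 3 and a change of 0.79 ± 0.32 (adjusted p = 0.844). Lamb1 read 162, 56.5 and 141 CPM in FoscKO and 105, 94.7 and 87.2 CPM in Control, a change of 0.33 ± 0.33, or 0.69 ± 0.22 without FoscKO replicate 2 (adjusted p = 0.255). Lamc1 had a log2 change of 0.39 ± 0.30, Lamb2 of 0.34 ± 0.27, Lama2 of 0.06 ± 0.26, Col18a1 of 0.19 ± 0.28 and Col15a1 of -0.08 ± 0.27. Lower in the order of levels, Col4a3, Col4a5 and Col4a6 had log2 changes of 0.58, 0.68 and 0.11, and Col4a4 and Col7a1 of -0.19 and -0.36. The laminin chains Lama1, Lama3, Lama4, Lamb3 and Lamc3 lay between -0.57 and -0.08.

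Fibril chains had a median of -0.21, with 7 of 20 above 0. Col3a1 read 3804, 2710 and 5343 CPM in FoscKO and 2898, 3950 and 2795 CPM in Control, overlapping groups and a change of 0.30 ± 0.34. Col5a3 read 940, 370 and 938 CPM in FoscKO against 707, 834 and 534 CPM, and its change of 0.12 ± 0.35 was below 0 under several alternatives. Col5a1 and Col5a2 had log2 changes of 0.06 ± 0.27 and 0.26 ± 0.27, and Col16a1 of 0.51 ± 0.38. Col19a1 was the one chain with all FoscKO libraries above all Control libraries, as in 5.75% of all genes, at 58.1, 72.3 and 72.1 CPM against 46.6, 53.1 and 50.5 CPM. Its log2 change was 0.43 ± 0.24 (edgeR adjusted p = 0.914). Col1a1 had a log2 change of -0.77 ± 0.44 and Col1a2 of -0.52 ± 0.46. Of the others, Col6a1 had a log2 change of 0.45 ± 0.28, Col6a2 of 0.32 ± 0.27 and Col26a1 of 0.54 ± 0.37. The 11 remaining fibril chains lay between -0.99 (Col11a2) and 0.49 (Col9a3), the latter at a mean of 1.84 CPM in Control. Col6a4, Col6a5, Col13a1, Col17a1 and Col25a1 lay between -0.57 and -0.36, and Col6a6, Col10a1, Col23a1 and Col28a1 between 0.06 and 0.96. None of these chains passed the test.

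Genes that act on or bind the chains were read from 6 lists. Their counts of higher calls stand beside 10.3% of all genes and 41.9% of genes averaging 50 CPM or more. Those of lower calls stand beside 1.85% and 1.02%. None of these counts is read as particular to its list. In FosGFP+ 4 of 21 genes of chain modification and folding were called higher and 0 lower. Plod3, a lysyl hydroxylase and glycosyltransferase of collagen, was at 77.9 ± 22.6 CPM in FosGFP+ and 33.7 ± 6.98 CPM in FosGFP- (SD, n = 4), an increase of 1.204 ± 0.24 on the log2 scale. P4ha2, a prolyl hydroxylase subunit, rose by 0.89 ± 0.20 and Creb3l1, a transcription factor of collagen secretion, by 1.28 ± 0.29. Serpinh1, the collagen chaperone HSP47, was at 3462 ± 485 CPM against 1767 ± 744 CPM, a change of 0.97 ± 0.27 (edgeR adjusted p = 0.0276). The list's median log2 change was 0.36, beside 0.57 for all genes of at least 50 CPM and -0.18 for all genes tested. Under TMM from genes of at least 50 CPM all 4 calls were lost (adjusted p 0.0553 to 0.178), and that of Serpinh1 was lost also without FosGFP+ replicate 2 (0.0657) or FosGFP- replicate 1 (0.0687).

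Among receptors 5 of 20 were called higher and 0 lower by edgeR, while DESeq2 called 5 higher and 2 lower. The unadjusted edgeR p was under 0.05 for 5 higher and 3 lower (16.5% and 9.89% of all genes). The 3 lower ones were Itga2, Itga6 and Calcr. Cd44, a hyaluronan receptor that also binds collagen, rose by 1.69 ± 0.20, from 176 ± 32.5 CPM in FosGFP- to 568 ± 114 CPM in FosGFP+ (SD, n = 4). Sdc4, a syndecan of satellite cells, rose by 1.39 ± 0.24, the collagen receptor kinase Ddr2 by 1.04 ± 0.23 and Sdc1 by 1.17 ± 0.27. Itgb1, named after its values were seen, rose by 0.81 ± 0.19, and its product was part of the sort. The laminin receptors of the fibre membrane did not pass and were picked after their values were seen: Itga7 was at 0.33 ± 0.25 and Dag1, dystroglycan, at -0.14 ± 0.25. Under TMM from genes of at least 50 CPM, Cd44, Sdc4 and Ddr2 were still called and Sdc1 and Itgb1 were not.

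Of 15 matrix proteases and inhibitors 4 were called higher and 0 lower. Adamts4 and Adamts1, which cut proteoglycans, rose by 1.57 ± 0.24 and 0.91 ± 0.22, and the inhibitors Timp1 and Timp3 by 1.28 ± 0.38 and 1.05 ± 0.31. Of these Adamts4 alone was called under TMM from genes of at least 50 CPM, and the calls of Timp1 and Timp3 were lost without FosGFP+ replicate 3 or 4 and without FosGFP- replicate 1, 2 or 4 (adjusted p 0.0702 to 0.105). Of 14 basement membrane partners 1 was called higher, Ntn4 (0.86 ± 0.22), a netrin that binds laminin, and 1 lower, Smoc2 (-3.84 ± 0.78), at 7.18 ± 3.55 CPM in FosGFP+ and 104 ± 77.6 CPM in FosGFP- (SD, n = 4). Smoc2 is also on the list of fibro-adipogenic markers, and its call was lost without FosGFP+ replicate 2 (adjusted p = 0.0532) or 4 (0.0507), with no filter and by limma-voom. That of Ntn4 was lost without FosGFP- replicate 2 (0.0581). Of these partners DESeq2 called 1 higher and 2 lower, and limma-voom 1 higher and 0 lower. The 14 genes of chain processing and crosslinking and the 15 fibril partners had 0 calls by edgeR, with unadjusted p under 0.05 for 2 higher and 2 lower in the first list and for 1 higher and 1 lower in the second. Over all genes 16.5% had such a p-value with higher values and 9.89% with lower values. DESeq2 called 1 gene higher in each list, and limma-voom 1 higher in the first list and 0 in the second. Over the 99 genes of the 6 lists tested, DESeq2 called 17 higher and 4 lower (13.4% and 3.11% of all genes). For limma-voom these were 16 and 0 (10.7% and 2.24%). In FoscKO against Control edgeR called 0 of the 98 genes of these 6 lists tested, with an unadjusted p under 0.05 for 13 higher and 5 lower. Such p-values were found for 3.56% and 1.96% of all genes, and for 417 and 75 of the 3869 genes of at least 50 CPM. DESeq2 called 1 of the 98 higher and 0 lower (0.27% and 0.146% of all genes), and limma-voom called 0 (0.0183% and 0.0274%).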

How the data were processed

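RNA of 14 libraries was copied with SMART-Seq v4, a kit that loses the strand, and tagged with Nextera XT, per the labels' protocols. The submitters' processing notes name, with no order or role, GRCm38, STAR 2.5.0c, HTSeq 0.6.1, limma and DESeq2 1.20.0. Raw counts per gene were deposited as 2 tables, 1 for each dataset. The authors' deposited tables of called genes hold log2 fold changes, standard errors and p-values. Their fold changes had the opposite sign to those given here and were turned. In them 14 per-library columns matched no label and were not used.

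Of 49671 identifiers 49412 were found in GENCODE M21 (GRCm38), the source of symbols, positions and exon lengths. An exon length is that of all annotated exons of a gene merged. Each dataset was fitted alone with edgeR 4.0.16 in R 4.3.3. Genes passed filterByExpr, scaling was by TMM, and the test was the two-sided quasi-likelihood F-test (robust, no covariate). It was also run on simulated counts with a common dispersion and, apart from the changed genes, the same mean profile in every library. That run does not cover libraries that differ in even background or stand apart from their group. Benjamini-Hochberg adjustment ran over all genes tested, and an adjusted p under 0.05 was a call. CPM used the TMM library sizes, and errors of means are SD over libraries. Alternatives were other scalings, subtraction of the even background, other filters, limma-voom (limma 3.58.1), DESeq2 1.42.0, a block for replicate number, and each library left out. The 2 and 5 times background thresholds were added after seeing the data. By rule the text names each member called or averaging at least 5 CPM in 1 group, up to 4 called genes of smallest adjusted p per pathway list, Fos and the defining markers; 1 member and 1 marker are not reported here and stand only in the counts and medians. The members, lists and tests were chosen with earlier results of these data known. The p-values measure only the spread between these libraries.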

Additional observations from a re-analysis of the deposited data

Results flagged for a closer look

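Col19a1 in FosGFP- had 1 library far from the others: replicate 2 read 86.1 CPM, and the gap to the next library was 0.852 of the range of the 4 values, above the 95% critical value of Dixon's test for 4 values. Of 34 sets of 4 libraries tested over the 17 chains above background, this was the only one so marked, or 2.94%, where chance marks about 1 in 20. In the same group replicate 4 was the lowest library for 16 of the 17 chains.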

How the results depend on the processing

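Scaling set the direction of several changes in the first comparison: the shift of the median of all genes was -0.38 with total counts, -0.58 with TMM from genes of at least 50 CPM and -0.19 with the even background subtracted, and in the second it was -0.18, -0.18 and -0.10. Of 771 alternative values for 47 named changes, 683 kept direction and side of the threshold, 37 lost the call, 28 gained it and 23 turned sign. In FosGFP+ against FosGFP-, Lama2 turned to -0.28 with total counts, -0.47 with TMM from genes of at least 50 CPM, -0.12 with background subtraction and -0.20 without FosGFP- replicate 4. With TMM from genes of at least 50 CPM, Lamb2 was at -0.11, Lamc1 at -0.14, Col3a1 at -0.26 and Col6a1 at -0.27, and with total counts Col3a1 was at -0.064 and Col6a1 at -0.072. With a library left out Lama2 ranged from -0.20 to 0.28. In FoscKO against Control, Col5a3 turned to -0.14 with either scaling, -0.035 with background subtraction, and ranged from -0.077 (without FoscKO replicate 1) to 0.46 (without FoscKO replicate 2), with values below 0 also without FoscKO replicate 3 or Control replicate 3. Fos turned to -0.28 with total counts, -0.27 with TMM from genes of at least 50 CPM, -0.15 with background subtraction, -0.10 with the 5 CPM filter, -0.13 with limma-voom, -0.13 with the replicate block and ranged from -0.56 (without FoscKO replicate 1) to 0.33 (without FoscKO replicate 2). The cause of these turns was not tested.

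Chains called higher in FosGFP+ numbered 0 in the fit reported, 2 with no filter, 2 by DESeq2 and 0 to 1 with a library left out. Chains called lower numbered 10 with total counts, 23 with TMM from genes of at least 50 CPM, 1 with the 5 CPM filter, 1 by limma-voom, 2 by DESeq2 and 0 to 1 with a library left out. Over all genes 2125 were called higher and 383 lower: 1029 and 2087 with total counts, 722 and 5252 with TMM from genes of at least 50 CPM, 1314 higher with background subtraction, 592 lower with the 5 CPM filter, 644 lower by DESeq2, and 1689 to 2202 higher and 184 to 364 lower with a library left out. In FoscKO against Control, 1 chain was called lower with no filter and 1 by DESeq2, and 0 with any library left out. Over all genes, higher and lower calls were 12 and 34 with total counts, 11 and 32 with TMM from genes of at least 50 CPM, 2 and 13 with background subtraction, 85 and 46 with no filter, 14 and 20 with the 5 CPM filter, 4 and 6 by limma-voom, 59 and 32 by DESeq2, and 0 to 16 and 0 to 27 with a library left out, the highest without FoscKO replicate 1.

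Titles give the same replicate numbers to both groups of a comparison, but same-numbered libraries did not deviate together in every pair: the FoscKO and Control libraries numbered 1 correlated at 0.22 across genes and matched each other best, and the other pairs lay between -0.05 and 0.03. With the replicate block 1 chain was called higher and 2 lower in FosGFP+ (9.67% and 1.34% of all genes), 0 in FoscKO, and 23 genes higher and 20 lower in FoscKO. At 5 times the even background 11 chains passed in all libraries in place of 17. Low gene counts and a high even background limit what can be said of chains near that background, above all in FosGFP-.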
